A study of Mus musculus with 4 samples.

Results

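The 10 genes described here belong to the interleukin-1 (IL-1) system. They are the ligands Il1b and Il1a, the IL-36 ligand Il1f9, the receptor antagonist Il1rn, the decoy receptor Il1r2, the accessory receptor chain Il1rap, the cytokine Il18 with its binding protein Il18bp, and the inflammasome genes Nlrp3 and Casp1. They were taken by name, 10 of the 19491 genes listed in the files, and all 10 were listed in every library.

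CD45+ cells, which are the cells of blood lineage, were sorted from the dura mater or from the brain of C57BL/6J mice at 8 weeks of age. Mice had received photothrombotic injury (PTI), in which light on the skull after an injection of Rose Bengal clots the vessels beneath it, or served as controls. The controls are labelled CT and were taken as the sham-operated mice of the study, and all tissue was taken on day 3. The groups are therefore sham brain, injured brain, sham dura mater and injured dura mater, all from wild-type mice with no transgene, and tissue was digested with enzymes at 37 °C before the sort. Each group has 1 library from the 10× Chromium 3′ assay, and the number of mice behind it is not given. With a single library in a group the spread between mice is unknown, and the differences below carry no test and no P value. Ranges in square brackets are 95% intervals for counting error only.

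IL-1α and IL-1β bind the same receptor, which needs the accessory chain encoded by Il1rap to signal. The product of Il1rn occupies that receptor without signalling, and the decoy receptor from Il1r2 binds IL-1β without passing on a signal, so both act against the ligands. IL-1β and IL-18 are made as precursors that caspase-1 (Casp1) cuts after the sensor NLRP3 has assembled an inflammasome, whereas IL-1α is active without that cut. IL-18 binding protein holds free IL-18. Neutrophils, monocytes, macrophages and microglia are the usual sources of IL-1 in injured tissue. Transcript levels do not show whether a precursor was cut or released.

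The level of a gene is its unique molecular identifiers (UMIs, 1 per captured molecule) added up over a class of cells and given per 1000000 UMIs of that class, written as CPM. Because the assay counts the 3′ end of a molecule, this level does not depend on transcript length. A difference is a log2 ratio of these levels, and a gene was called past the fold when the ratio was at least 2-fold and the groups compared held at least 20 UMIs of it between them. A cluster of cells took the name of a cell type, with the ending -like, from marker genes. Shares of cells with a UMI are given after each cell was thinned to 2000 UMIs, so that depth does not set them.

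After filters 3618, 4438, 3439 and 2603 cells were kept from sham brain, injured brain, sham dura mater and injured dura mater, with 37590286, 72390201, 41709177 and 40479076 UMIs. The median cell of the injured libraries was deeper, with 14269 UMIs in brain and 14156 in dura mater against 8252 and 9320 in the sham libraries. Between 3 and 11 barcodes were shared by any pair of libraries. Microglia-like cells were 432 of sham brain, 624 of injured brain and at most 6 of a dura mater library. Infiltrating-like macrophages, led by Gpnmb, Arg1, Fabp5 and Spp1, were 7 of sham brain and 1373 (30.9%) of injured brain. In sham and injured dura mater they were 1 and 21 cells. One cluster, led by Cxcl3 and Siglecf, held 140 cells of injured brain and at most 9 of any other library. It met no list of markers, so it has no cell type name and is called the Siglecf cluster, a label chosen after its genes were seen. Its median cell had 3008 UMIs, and the 10 markers of mature granulocytes summed to 33190 CPM in it against 284100 in mature granulocyte-like cells of the same library. Since nearly all its cells come from 1 library, a cell type and a feature of that library cannot be told apart. T-like and B-like cells together, which should not make IL-1β, held Il1b at 27.8 CPM in sham brain, 146 in injured brain, 21.6 in sham dura mater and 134 in injured dura mater. These values were taken as a background level, as RNA can reach droplets of other cells, but their source was not tested. The 1% of these cells with the most Il1b UMIs held 10.4% of them in sham brain and 49.2% in injured brain. In sham and injured dura mater that share was 13.4% and 34.9%.

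Promoters are shown for Il1b, for Nlrp3 and Il1rn, the members whose levels over cell classes were most like those of Il1b, and for Il1a, whose classes differed. Each is 300 bases from the RefSeq annotation of GRCm38.p6, written 5′ to 3′ in the direction of the gene, from 250 bases before the start of transcription to 50 after it. Capitals mark matches to an AP-1-type motif (TGANTCA), a PU.1-type motif (GAGGAAG, which reads CTTCCTC on the other strand) and the TATA box (TATAAA).
Il1a promoter, chr2:129309923-129310222, minus strand: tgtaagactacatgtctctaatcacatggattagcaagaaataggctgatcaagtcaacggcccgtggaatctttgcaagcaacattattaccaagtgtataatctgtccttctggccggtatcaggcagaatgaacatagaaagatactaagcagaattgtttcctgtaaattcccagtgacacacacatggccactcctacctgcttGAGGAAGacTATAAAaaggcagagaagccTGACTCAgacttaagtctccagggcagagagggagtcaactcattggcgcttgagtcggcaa
Il1b promoter, chr2:129371090-129371389, minus strand: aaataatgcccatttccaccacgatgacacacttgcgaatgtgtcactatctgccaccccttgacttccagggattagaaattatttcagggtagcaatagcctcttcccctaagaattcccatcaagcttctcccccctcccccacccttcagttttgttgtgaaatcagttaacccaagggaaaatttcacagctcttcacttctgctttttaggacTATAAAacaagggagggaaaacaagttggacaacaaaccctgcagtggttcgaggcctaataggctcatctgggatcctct
Il1rn promoter, chr2:24336610-24336909, plus strand: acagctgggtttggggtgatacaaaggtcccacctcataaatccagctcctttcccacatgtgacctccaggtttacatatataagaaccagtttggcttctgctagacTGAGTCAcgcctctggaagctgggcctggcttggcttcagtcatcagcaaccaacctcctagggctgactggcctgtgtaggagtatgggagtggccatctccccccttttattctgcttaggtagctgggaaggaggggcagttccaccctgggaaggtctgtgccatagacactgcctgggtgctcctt
Nlrp3 promoter, chr11:59542436-59542735, plus strand: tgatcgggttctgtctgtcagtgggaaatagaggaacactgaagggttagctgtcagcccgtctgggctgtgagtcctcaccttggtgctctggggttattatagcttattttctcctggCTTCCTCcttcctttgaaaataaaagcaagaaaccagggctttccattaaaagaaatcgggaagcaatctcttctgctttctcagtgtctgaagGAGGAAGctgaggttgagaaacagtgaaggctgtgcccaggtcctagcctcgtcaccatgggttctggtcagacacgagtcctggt

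In the Il1a window a PU.1-type match began 41 bases before the start, a TATA box 32 bases before it and an AP-1-type match 12 bases before it. The Il1b window held a TATA box 31 bases before the start. In the Il1rn window an AP-1-type match began 141 bases before the start, and in the Nlrp3 window PU.1-type matches began 130 and 36 bases before it. The table holds 3 windows for Il1rn and 2 for Nlrp3, from different transcript starts, and the first listed of each is printed. Of the other Il1rn windows 1 held a TATA box on the opposite strand and 1 none of the motifs, and the other Nlrp3 window held none. On both strands, 7.81% of the 32851 promoter windows of the table held the AP-1-type motif, 13.6% the PU.1-type motif and 13.6% the TATA box. The 10 members had 13 windows. None held the NF-κB-type motif that was searched, which 1.47% of all windows hold. A match is a description of letters and not a bound site.

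Il1b (chr2:129364570-129371139, minus strand, GRCm38), the gene of IL-1β, was the most abundant member in all 4 libraries. Over all CD45+ cells its level was 1177 CPM [1166-1188] in sham brain, 2348 [2336-2359] in injured brain, 924 [915-933] in sham dura mater and 1223 [1213-1234] in injured dura mater. It was thus higher in the injured library of both tissues, by 0.996 on the log2 scale in brain and 0.40 in dura mater. These sums depend on which cells each library holds as well as on the level per class.

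Among classes, the Il1b level was highest in the Siglecf cluster of injured brain, at 19780 CPM, where 97.8% of thinned cells had a UMI. Mature granulocyte-like cells, the neutrophil class, came next. Their level was 6930 CPM [6805-7057] in sham brain, 5425 [5276-5578] in injured brain, 5220 [5116-5325] in sham dura mater and 4926 [4816-5037] in injured dura mater, with a UMI in between 90.3% and 96.7% of thinned cells. Il1b was thus abundant in these cells in the sham libraries already. Immature granulocyte-like cells, which hold the genes of secondary granules, had 1042, 868, 408 and 492 CPM in the same order of libraries.

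**Figure D1:**
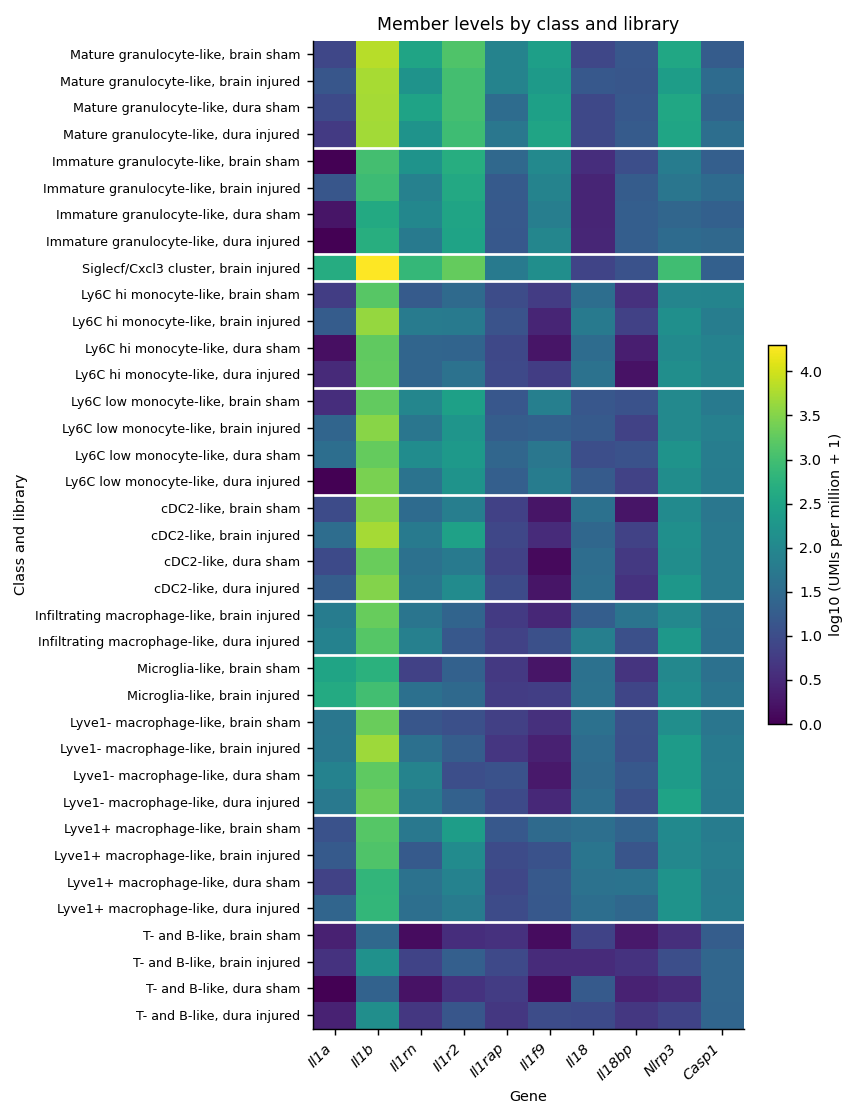
Levels of the 10 members by cell class and library, as log10 of CPM plus 1 (colour scale), with classes and libraries in rows and genes in columns. Il1b reached 19780 CPM in the Siglecf cluster and 6930 in mature granulocyte-like cells of sham brain, Il1a was highest in the Siglecf cluster (450) and in microglia-like cells (427 in injured brain), and Casp1 was at 84.5 in Ly6C hi monocyte-like cells of sham brain.

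The mature granulocyte-like cells of injured brain had a lower Il1b level than those of sham brain, by −0.35 on the log2 scale [−0.40 to −0.31], and those of dura mater differed by −0.08 [−0.13 to −0.04]. The direction in brain turned to 0.38 when each cell took its class from its own marker genes, and to 0.54 when the Siglecf cluster was counted with the granulocytes. The direction in dura mater turned to 0.12 when cells were thinned. A list of 12 genes that respond to tissue dissociation, such as Fos, Jun and Egr1, summed to 11880 CPM in the mature granulocyte-like cells of sham brain and 6325 in those of injured brain, and to 11780 and 7683 in dura mater. The part of dissociation in the Il1b level was not tested. Of all Il1b UMIs, mature granulocyte-like cells held 26.4% in sham brain, 2.94% in injured brain, 25.1% in sham dura mater and 15.6% in injured dura mater. In injured brain the largest part, 37.9%, lay in infiltrating-like macrophages, whose level was 2015 CPM.

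Outside granulocytes the Il1b level was higher in the injured brain in several myeloid classes. In Ly6C hi monocyte-like cells, the classical monocytes, it was 1496 CPM in sham brain and 4191 in injured brain, a log2 ratio of 1.49 [1.44 to 1.53], while in dura mater it was 1745 and 1845. The brain difference kept its direction in all 10 alternatives tried and fell below the fold in a pair of them, to 0.94 at clustering resolution 1.2 and to 0.74 with 2500 cells per library. In Lyve1- macrophage-like cells, the border macrophages rich in MHC class II, it was 2069 and 4601 CPM in brain, a log2 ratio of 1.15 [1.108 to 1.198]. In dura mater it was 1678 and 2169, a ratio of 0.37. Lyve1+ macrophage-like cells of brain went the other way, at 1436 CPM in the sham library and 1288 in the injured one. With both classes together the brain ratio was 0.83, within 2-fold, and lay between 0.79 and 1.21 over 10 alternatives. The cDC2-like cells are a class of dendritic cells whose leading genes held 3 cDC2 markers and 3 of the Lyve1- macrophage list. Their Il1b level was 3170 and 5215 CPM in brain and 2062 and 3213 in dura mater, log2 ratios of 0.72 and 0.64. In microglia-like cells it was 551 CPM [531-572] in sham brain and 991 [972-1010] in injured brain, a log2 ratio of 0.85 [0.79 to 0.91], and the share of thinned cells with a UMI was 14.6% and 33.0%. The T-like and B-like shares were 6.01% and 13.1%, and with their level subtracted the ratio in microglia-like cells was 0.69.

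**Figure D2:**
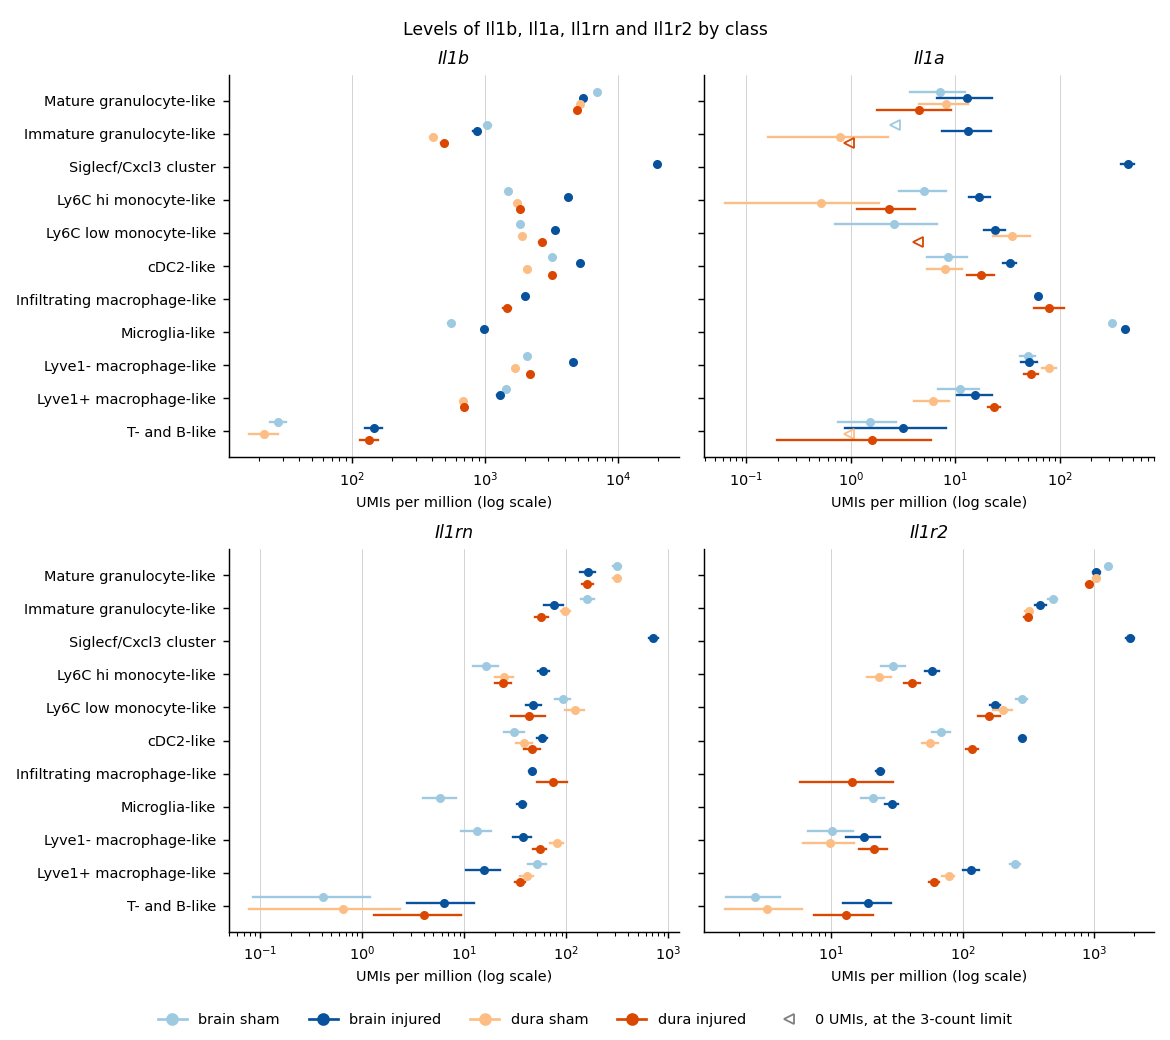
Levels of Il1b, Il1a, Il1rn and Il1r2 in CPM on a log axis, by cell class, with 1 point per library and 95% counting intervals, and open triangles at the limit of 3 UMIs where none was counted. Il1b, Il1rn and Il1r2 were high in mature granulocyte-like cells of all 4 libraries, whereas Il1a was high in microglia-like cells and in the Siglecf cluster of injured brain.

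Il1a (chr2:129299610-129309972, minus strand), the gene of IL-1α, had a different order of classes. Over all CD45+ cells its level was 52.2 CPM in sham brain, 104 in injured brain, 7.89 in sham dura mater and 15.5 in injured dura mater, so both brain libraries lay above both dura mater libraries. Microglia-like cells held 83.6% of its UMIs in sham brain and 60.5% in injured brain, with levels of 317 [302-333] and 427 [414-439] CPM, a log2 ratio of 0.43 [0.35 to 0.51]. The share of thinned microglia-like cells with an Il1a UMI was 31.2% and 36.2%, against 0.185% of T-like and B-like cells of sham brain and none of 206 in injured brain, which allows up to 1.77%. Il1b was found in 14.6% and 33.0% of the same microglia-like cells.

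Among thinned microglia-like cells of sham brain, Il1a was found in 47.6% of those with an Il1b UMI and in 28.5% of the others. In injured brain the shares were 45.6% and 31.6%. The Siglecf cluster held Il1a at 450 CPM, whereas mature granulocyte-like cells of injured brain held it at 13.01 CPM. Infiltrating-like macrophages held 62.7 CPM and, being numerous, 26.6% of the Il1a UMIs of injured brain. In sham dura mater 51.4% of Il1a UMIs lay in Lyve1- macrophage-like cells, at 79.0 CPM, and in injured dura mater these cells held 53.0 CPM. Lyve1+ macrophage-like cells of dura mater, the perivascular class, held 6.10 CPM in the sham library and 23.7 in the injured one. This was a log2 ratio of 1.96 [1.39 to 2.58], against −0.58 in the Lyve1- class. With both classes of dura mater as 1 group the ratio was 0.10 [−0.15 to 0.35], so the difference depends on how these classes were split. In cDC2-like cells the Il1a level was 8.59 and 33.2 CPM in sham and injured brain, a ratio of 1.95 that was 0.28 with classes from each cell's own markers, and 8.06 and 17.7 in dura mater, a ratio of 1.13 that came within 2-fold under 4 alternatives, at the least 0.69 with cells thinned.

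Il1f9 (chr2:24186476-24193568, plus strand), the gene of the IL-36γ ligand, was found mainly in granulocytes. In mature granulocyte-like cells its level was 269 CPM in sham brain, 217 in injured brain, 271 in sham dura mater and 316 in injured dura mater, and the immature class held 104, 82.9, 69.0 and 92.6. Over all CD45+ cells of brain it was 21.5 and 8.61 CPM, a log2 ratio of −1.32 [−1.47 to −1.17], where mature granulocyte-like cells were 9.15% of the sham library and 3.58% of the injured one. With cells thinned this ratio was −0.65. In dura mater it was 22.2 and 26.0 CPM.

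Il1rn (chr2:24336853-24351494, plus strand), the gene of the receptor antagonist, was highest in the same classes as Il1b. The Siglecf cluster held 717 CPM [640-799] and had a UMI in 52.2% of thinned cells. Mature granulocyte-like cells held 317 [291-345] in sham brain, 163 [138-191] in injured brain, 312 [287-338] in sham dura mater and 161 [142-182] in injured dura mater. The injured libraries were both lower, and neither counting interval overlapped that of its sham library. The log2 ratios were −0.96 [−1.23 to −0.70] in brain and −0.95 [−1.17 to −0.74] in dura mater, both within 2-fold. The brain ratio was −0.13 with classes from each cell's own markers and 0.12 with the Siglecf cluster counted in, whereas the dura mater ratio lay between −0.65 and −1.30 over the alternatives. Immature granulocyte-like cells held 161, 75.8, 97.8 and 57.2 CPM, log2 ratios of −1.08 [−1.47 to −0.70] in brain and −0.77 in dura mater. The summed level of the dissociation list was also lower in the injured libraries, as given above for mature granulocyte-like cells, and its part in the Il1rn difference was not tested.

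In several other classes of the brain Il1rn was higher in the injured library. In microglia-like cells it was 5.80 CPM [3.92-8.28] in sham brain and 36.9 [33.3-40.7] in injured brain, a log2 ratio of 2.67 [2.13 to 3.25], and after cells with a UMI of the granulocyte genes Retnlg or Cxcr2 were left out the levels were 4.38 and 24.2. After thinning, 3.85% of microglia-like cells of injured brain had an Il1rn UMI and none of 432 of sham brain, which allows up to 0.85%, while the share in T-like and B-like cells was 1.46% and 0.278%. In Ly6C hi monocyte-like cells it was 16.3 and 59.8 CPM in brain, a log2 ratio of 1.87 [1.44 to 2.33] that was 1.02 at clustering resolution 1.2 and 0.98 with 2500 cells per library, and 24.6 and 24.3 in dura mater. In Lyve1- macrophage-like cells it was 13.3 and 37.3 in brain, a ratio of 1.49 [0.93 to 2.07], and 80.9 and 54.9 in dura mater, a ratio of −0.56. With the Lyve1+ and Lyve1- classes together the ratio was −0.02 [−0.38 to 0.34] in brain and −0.41 in dura mater. The brain difference thus depends on how these classes were split. Infiltrating-like macrophages of injured brain held 45.9 CPM and 43.1% of that library's Il1rn UMIs. Against all border macrophages of sham brain their level was higher by 0.67 [0.42 to 0.94], and by 2.93 once cells with a Retnlg or Cxcr2 UMI were left out of both.

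Il1r2 (chr1:40074079-40125231, plus strand), the decoy receptor, was the second most abundant member in mature granulocyte-like cells. Its level there was 1282 CPM [1229-1337] in sham brain, 1042 [977-1110] in injured brain, 1034 [988-1081] in sham dura mater and 908 [862-957] in injured dura mater, with a UMI in 84.0%, 83.02%, 78.8% and 75.9% of thinned cells. The log2 ratio of injured over sham was −0.30 [−0.41 to −0.19] in brain and −0.19 in dura mater, which was 0.04 with cells thinned. Immature granulocyte-like cells held 483, 389, 318 and 312 CPM, and the Siglecf cluster held 1879 with a UMI in 81.2% of thinned cells.

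Il1r2 was also found in cDC2-like cells. Their level was 68.7 CPM [58.9-79.6] in sham brain, 284 [270-298] in injured brain, 56.8 [49.0-65.4] in sham dura mater and 118 [106-132] in injured dura mater, and the share of thinned cells with a UMI was 9.29%, 33.8%, 8.33% and 20.1%. Both injured libraries lay above both sham libraries, with log2 ratios of 2.05 [1.82 to 2.28] in brain and 1.06 [0.80 to 1.32] in dura mater. The dura mater ratio was 0.83 with doublets kept. T-like and B-like cells had a share of at most 1.08%. Without cells that held a Retnlg or Cxcr2 UMI the levels in cDC2-like cells were 64.7, 282, 55.3 and 115. In injured brain 24.8% of all Il1r2 UMIs lay in cDC2-like cells and 14.98% in mature granulocyte-like cells, while in sham brain these shares were 4.12% and 50.4%.

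**Figure D3:**
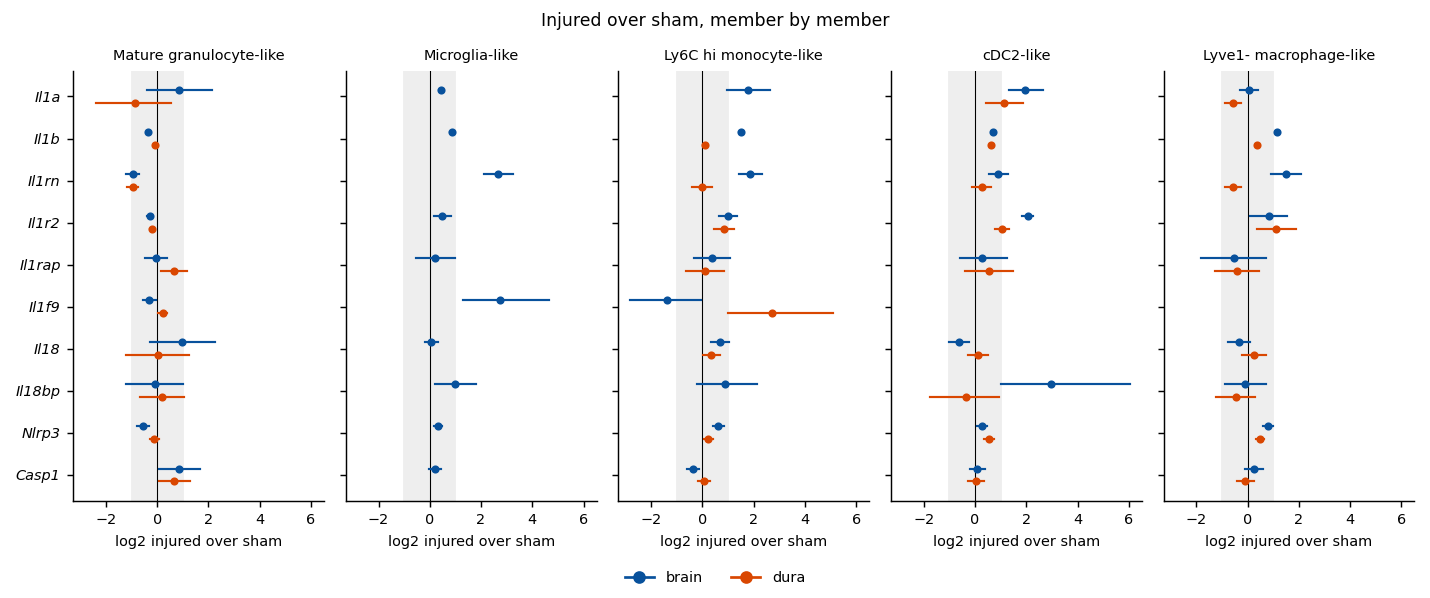
Log2 ratio of the injured over the sham library for each member in 5 cell classes, with 95% counting intervals, brain in blue and dura mater in orange, and a grey band for ratios within 2-fold. Il1rn lay below 0 in mature granulocyte-like cells of both tissues (−0.96 and −0.95) and above the band in microglia-like (2.67) and Ly6C hi monocyte-like cells of brain (1.87), and Il1r2 lay above the band in cDC2-like cells of both tissues (2.05 and 1.06).

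Lyve1+ macrophage-like and Ly6C low monocyte-like cells also held Il1r2 and Il1f9, together with granulocyte transcripts. Il1r2 was at 249, 116, 78.0 and 60.6 CPM in Lyve1+ macrophage-like cells of sham brain, injured brain, sham dura mater and injured dura mater. The 10 markers of mature granulocytes summed there to 38570, 17560, 17760 and 26770 CPM, all 10 with a UMI, while in Lyve1- macrophage-like cells they summed to between 694 and 2213. With the 27.2% to 48.3% of Lyve1+ macrophage-like cells that held a Retnlg or Cxcr2 UMI left out, the Il1r2 level was 6.07, 45.6, 6.85 and 6.09. Il1f9 in these cells went from 29.8, 11.2, 14.6 and 14.0 to at most 1.21, and Il1rn from 51.6, 15.5, 41.0 and 35.4 to 0 (up to 4.48), 7.20, 6.85 and 24.8 CPM. In Ly6C low monocyte-like cells, the patrolling class, Il1r2 went from 281, 176, 202 and 158 to 0 (up to 9.45), 27.7, 3.23 and 0 (up to 18.8). This class joined a pair of unlike clusters. In sham brain they held Il1r2 at 17.1 CPM over 62 cells and 396 over 64 cells. In injured brain they held it at 18.8 over 195 cells and 360 over 77 cells. In Lyve1+ macrophage-like cells of brain, Il1rn (log2 ratio −1.73), Il1r2 (−1.11) and the summed granulocyte markers were all lower in the injured library. In those of dura mater the markers were higher in the injured library, while Il1r2 and Il1rn were lower. With the cells named above left out, Il1r2 in brain was higher in the injured library, at 45.6 against 6.07 CPM. The part of granulocyte transcripts in these results was not tested.

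**Figure D4:**
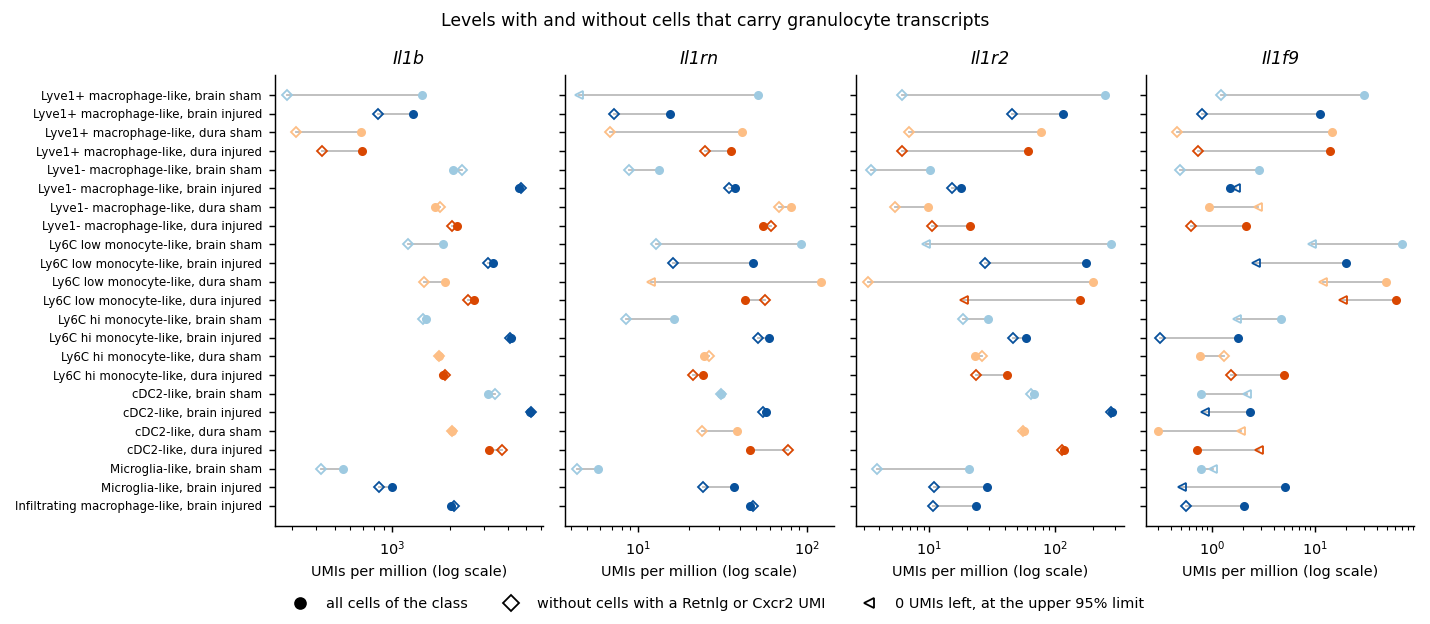
Levels of Il1b, Il1rn, Il1r2 and Il1f9 in CPM on a log axis, by class and library, over all cells (filled circles) and without cells that held a Retnlg or Cxcr2 UMI (open diamonds, or triangles at the upper 95% limit where no UMI was left). In Lyve1+ macrophage-like cells of sham brain Il1r2 went from 249 to 6.07, whereas in cDC2-like cells of injured brain it went from 284 to 282.

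Il1rap (chr16:26581704-26730117, plus strand), the accessory chain of the IL-1, IL-33 and IL-36 receptors, was low in every class and highest in mature granulocyte-like cells. Its level there was 83.8 CPM [70.6-98.9] in sham brain, 81.3 [64.0-102] in injured brain, 31.8 [24.2-41.0] in sham dura mater and 49.6 [39.2-62.0] in injured dura mater. Both brain libraries lay above both dura mater libraries without overlap of the counting intervals. Between the sham libraries the brain level was higher by 1.40 on the log2 scale [0.95 to 1.86]. Between the injured libraries it was higher by 0.71, within 2-fold, and by 0.35 to 0.98 over the alternatives. The share of all genes that differed as far between the tissues is not given. The Siglecf cluster held 57.9 CPM.

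Il18 (chr9:50554827-50581840, plus strand) differed from the IL-1 ligands in its classes. It was low in mature granulocyte-like cells, at 7.13, 14.1, 7.54 and 7.64 CPM, and it rested on 3 UMIs in the Siglecf cluster. Ly6C hi monocyte-like cells held 34.2, 54.9, 31.8 and 40.3 CPM, Lyve1+ macrophage-like cells 36.7, 45.5, 39.9 and 35.0, and microglia-like cells 38.9 and 40.4 in sham and injured brain. The microglia-like levels differed by 0.06 on the log2 scale [−0.19 to 0.31]. Infiltrating-like macrophages of injured brain held 18.1 CPM. Against border macrophages of sham brain this was a log2 ratio of −1.08 [−1.33 to −0.83]. It came within 2-fold under 5 alternatives, at the least −0.68 with cells thinned. The 21 such cells of injured dura mater held 69.8 CPM [48.3-97.5] on 34 UMIs.

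Il18bp (chr7:102014885-102018690, minus strand), the binding protein of IL-18, was the member with the largest ratio over all CD45+ cells. Its level was 5.37 CPM [4.66-6.17] in sham brain, 23.5 [22.4-24.6] in injured brain, 10.2 [9.22-11.2] in sham dura mater and 11.1 [10.1-12.1] in injured dura mater. Injured brain stood above the other libraries, and the log2 ratio was 2.13 [1.92 to 2.35] in brain and 0.12 in dura mater. Of the Il18bp UMIs of injured brain, 83.2% lay in infiltrating-like macrophages, at 44.3 CPM. In dura mater Lyve1+ macrophage-like cells held 46.2% of Il18bp UMIs in the sham library and 54.9% in the injured one, at 42.7 and 26.6 CPM. For each Il18 UMI there were 0.265 Il18bp UMIs in sham brain, 0.966 in injured brain, 0.594 in sham dura mater and 0.451 in injured dura mater. The value was 2.45 in infiltrating-like macrophages of injured brain. The 21 such cells of injured dura mater went the other way, with 5 Il18bp UMIs and 34 Il18 UMIs.

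**Figure D5:**
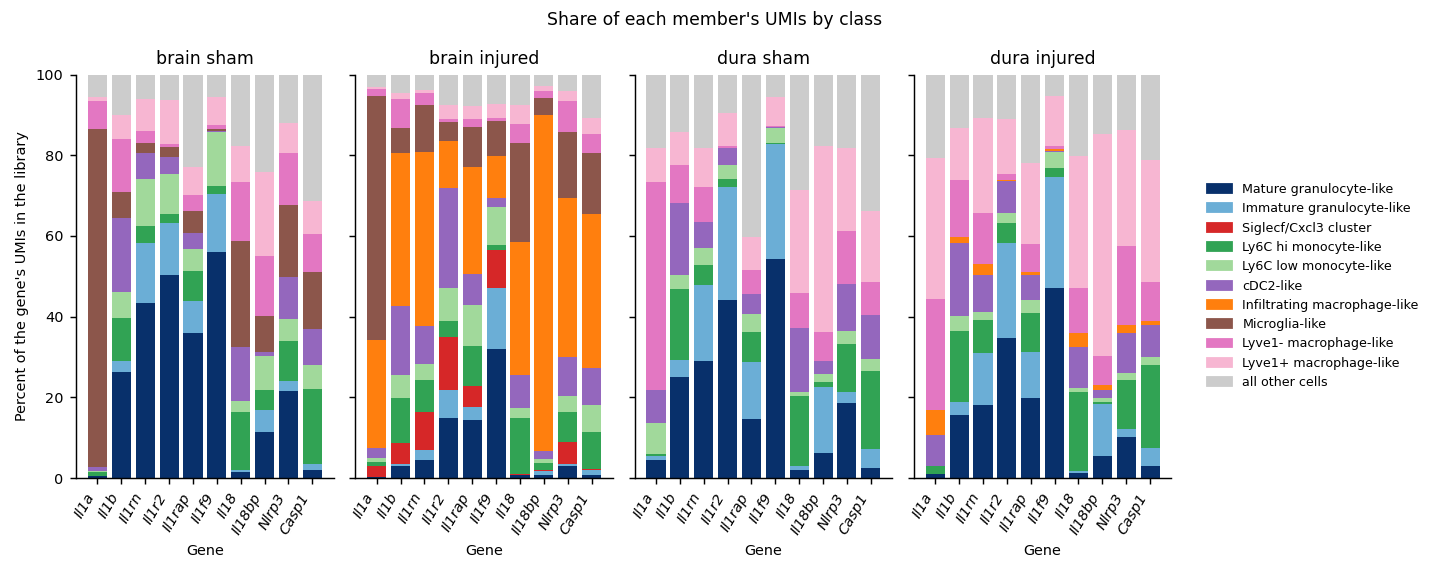
Percent of each member's UMIs that lay in each cell class, stacked to 100%, for the 4 libraries. Microglia-like cells held 83.6% of Il1a UMIs in sham brain, infiltrating-like macrophages held 83.2% of Il18bp UMIs in injured brain, and mature granulocyte-like cells held 50.4% of Il1r2 UMIs in sham brain and 14.98% in injured brain.

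Nlrp3 (chr11:59541568-59566956, plus strand), the sensor of the inflammasome, was detected in all myeloid classes. Over all CD45+ cells it was 75.5 CPM in sham brain, 110 in injured brain, 86.8 in sham dura mater and 127 in injured dura mater, log2 ratios of 0.55 in both tissues. Mature granulocyte-like cells held 364, 249, 361 and 334 CPM, and the Siglecf cluster held 953. Lyve1- macrophage-like cells held 132, 231, 223 and 310, higher in the injured library of both tissues. Microglia-like cells held 98.6 and 124, and infiltrating-like macrophages of injured brain 98.5.

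Casp1 (chr9:5298517-5307265, plus strand), the protease gene, was found in Ly6C hi monocyte-like cells at 84.5, 65.7, 78.4 and 81.9 CPM, the highest named class in each library except injured brain. There Ly6C low monocyte-like cells held 72.3 CPM and Lyve1+ macrophage-like cells 68.0, with counting intervals that overlapped that of Ly6C hi monocyte-like cells. Mature granulocyte-like cells held 16.6 [11.1-24.1], 30.3 [20.2-43.9], 22.1 [15.8-29.9] and 35.0 [26.4-45.6], and the Siglecf cluster 20.03 [9.16-38.0]. In the granulocytes the injured libraries were higher by 0.87 [0.06 to 1.68] on the log2 scale in brain and by 0.67 in dura mater, with counting intervals that overlapped in both tissues. T-like and B-like cells held between 17.6 and 25.6 CPM, near the granulocyte levels. Their clusters differed within sham brain, from 2.38 CPM in a T-like cluster to 38.0 in a B-like cluster. Whether these lymphocyte levels are background or the cells' own RNA was not tested.

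Read as a list over all CD45+ cells of brain, 1 of the 10 members was past the fold upward, Il18bp, beside 4.28% of 14518 genes, and 1 downward, Il1f9, beside 17.1%. The median log2 ratio of the members was 0.40, and that of all genes was −0.27. In dura mater no member was past the fold in either direction, beside 3.07% of genes upward and 4.56% downward, with a median of 0.26 for the members and −0.07 for all genes. In mature granulocyte-like cells none of the 10 was past the fold, beside 2.86% upward and 7.95% downward in brain and 5.71% and 4.71% in dura mater. The medians there were −0.19 in brain and −0.03 in dura mater, and those of all genes −0.21 and −0.11.

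In microglia-like cells 2 of the 10 members were past the fold upward, beside 5.15% of genes, and none downward, beside 5.83%. These were Il1rn and Il1f9, the latter with 59 UMIs in both libraries together and none once cells with a Retnlg or Cxcr2 UMI were left out. In Ly6C hi monocyte-like cells of brain Il1a, Il1b and Il1rn were past the fold upward, beside 4.9%, and Il1f9 downward, beside 4.99%. Of these, Il1a rested on 92 UMIs and Il1f9 on 23, and both changed sign with cells thinned, to −0.20 and 0.12, while Il1b and Il1rn fell below the fold with 2500 cells per library, as given above. In those of dura mater 1 of 8 members with enough UMIs was past the fold upward, beside 2.65%, namely Il1f9 with 27 UMIs, and none downward, beside 2.47%. In cDC2-like cells 3 of 9 were past the fold upward in brain, beside 5.79%, and 2 of 9 in dura mater, beside 3.11%. None was downward, beside 4.04% and 2.35%. The brain calls were Il1a, Il1r2 and Il18bp, the last on 36 UMIs and of opposite sign with cells thinned (−1.24), and the dura mater calls were Il1a and Il1r2, of which Il1a came within 2-fold with cells thinned and Il1r2 with doublets kept or with the T-like and B-like level subtracted. The dissociation list was lower in the injured library in these classes, with a median log2 ratio of −0.69 in microglia-like cells, −1.07 in Ly6C hi monocyte-like cells of brain and −0.70 in cDC2-like cells of brain, and its part in these results was not tested.

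In border macrophages, the Lyve1+ and Lyve1- classes as 1 group, no member was past the fold upward and 1 of 10 downward in brain, beside 0.909% and 3.44%, and none in dura mater, beside 1.61% and 1.94%. The brain call was Il1f9, at 13.7 and 5.53 CPM, which were 0.70 and 0.29 without cells that held a Retnlg or Cxcr2 UMI. Infiltrating-like macrophages of injured brain were set against the border macrophages of sham brain, since sham brain held 7 such cells. Of the 10 members 1 was past the fold upward, Il18bp at 1.52 [1.18 to 1.88], beside 7.46%, and 4 downward, beside 19.6%. The downward calls were Il1f9 (−2.76), Il1r2 (−2.19), Il18 and Il1rap (−1.06). Without cells that held a Retnlg or Cxcr2 UMI, Il1f9 was at −0.31, within 2-fold, and Il1r2 was at 1.36 and Il1rap at 0.43 in the other direction. The Siglecf cluster was set against mature granulocyte-like cells of the same library. There 4 of 8 members were past the fold upward, Il1a (5.11), Il1rn (2.14), Nlrp3 (1.93) and Il1b (1.87 [1.82 to 1.92]), beside 41.5% of genes, and none downward, beside 9.26%. The dissociation list was also higher in that cluster, 8 of 12 genes past the fold upward with a median log2 ratio of 1.29, and its part was not tested.

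The ratio of antagonist to ligand followed from these levels. For each Il1b UMI of mature granulocyte-like cells there were 0.0457 Il1rn UMIs in sham brain, 0.0300 in injured brain, 0.0597 in sham dura mater and 0.0327 in injured dura mater, so both injured libraries had the smaller ratio. In immature granulocyte-like cells it was 0.154, 0.0873, 0.240 and 0.116, again smaller in the injured library of each tissue. In microglia-like cells it was 0.0105 in sham brain and 0.0372 in injured brain, the opposite order. It was 0.0362 in the Siglecf cluster and 0.0228 in infiltrating-like macrophages of injured brain. Over all CD45+ cells it was 0.0277, 0.0200, 0.0516 and 0.0283.

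Since Il1b had a UMI in 90.3% to 96.7% of thinned mature granulocyte-like cells, the share of these cells with both Il1b and Il1r2, between 68.7% and 81.6%, and with both Il1b and Il1rn, between 22.0% and 43.2%, lay close to the share with the antagonist gene alone. In cDC2-like cells Il1b and Il1r2 were found together in 8.57%, 32.3%, 5.56% and 16.4%. Whether the genes went together beyond what their single shares give was not tested.

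Over 64 combinations of class and library with at least 50 cells, which share 4 libraries and their depth, the gene whose level was most like that of Il1b was Nlrp3 (Pearson r = 0.93), followed by Il13ra1, Sirpb1b, Tgfbi and Ccr1 (0.90 to 0.92). The genes most like Il1rn were Slc7a11 (0.91), Ccr1, 1600010M07Rik, Cd300ld and Clec4d. Those most like Il1r2 were Trem1 (0.93, also a granulocyte marker used for naming), Slc7a11, Slc16a3, Ppp1r3d and Clec4d. Those most like Il18 were Cd86 (0.90), Asah1, Slc29a3, Pld4 and Zfp385a. Among members, Il1b and Il1rn had r = 0.88 and Il1rn and Il1r2 had 0.85. These values describe 12927 genes and carry no test.

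Of 41 other genes of the pathway (receptors, signalling adaptors, inflammasome parts and NF-κB feedback genes), 39 were listed in the files. Over all CD45+ cells of brain 1 of 37 with enough UMIs was past the fold upward, beside 4.28% of all genes, and 7 downward, beside 17.1%, with the receptor genes Il18r1 (−2.56), Il1r1 (−2.39), Il1rl1 (−2.18) and Il18rap (−1.46) among the latter. In dura mater none of 38 was past the fold, beside 3.07% and 4.56%. In mature granulocyte-like cells of brain Pycard, the adaptor that joins NLRP3 to caspase-1, was at 28.5 and 79.1 CPM (1.47), and the NF-κB genes Nfkb2 (−1.08) and Tnfaip3 (−1.04) were lower, with 24 of 27 genes within 2-fold, beside 2.86% of all genes past the fold upward and 7.95% downward. In those of dura mater Mefv, the gene of pyrin, another inflammasome sensor (2.31), and Casp4, a caspase of the non-canonical inflammasome (1.08), were higher among 28 genes, beside 5.71% upward. In microglia-like cells 1 of 36 was past the fold upward, beside 5.15%, and 3 downward, beside 5.83%, among them Txnip (−1.47) and Il1rl1 (−1.16). In Ly6C hi monocyte-like cells of brain 2 of 32 were past the fold upward, beside 4.9%, and 1 downward, beside 4.99%. In border macrophages 1 and 2 of 36 were past it upward and downward in brain, beside 0.909% and 3.44%, and 3 and 0 of 37 in dura mater, beside 1.61% and 1.94%. In cDC2-like cells of brain 2 and 4 of 35 were, beside 5.79% and 4.04%. In infiltrating-like macrophages against border macrophages of sham brain 2 of 36 were past the fold upward, beside 7.46%, Mefv (2.23) and Pycard (1.62, at 117 and 359 CPM, named after its values were seen), and 12 downward, beside 19.6%, among them Il18rap (−2.96), Txnip (−2.74), the ATP-gated channel gene P2rx7 (−2.46) and Nlrc4 (−2.32). In the Siglecf cluster against mature granulocyte-like cells 13 of 26 were past the fold upward, beside 41.5% of all genes, led by the NF-κB inhibitors Tnfaip3 (3.22) and Nfkbia (2.94) and by the DNA sensor Aim2 (2.69), and 2 downward, beside 9.26%, of which Serpinb1a, an inhibitor of neutrophil proteases, was at −3.30.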

How the data were processed

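CD45+ cells of 4 libraries, 1 each from brain and dura mater after sham surgery or PTI, were used. The authors mapped reads to mm10 with Cell Ranger 3.1.0 and normalized them in Seurat 3.1.0, and they deposited a natural log for each gene and cell, taken of 1 plus the gene's UMIs for 10000 UMIs in the cell. Taking a cell's lowest value as 1 UMI, these were turned back to UMIs, and all came out whole within 1e-06. The files list only genes found in at least 3 cells, 15963 of them in every library, and a gene not listed was taken as 0.

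Cells with over 1000 and under 6000 genes and a mitochondrial share of 7% or less were kept. The automatic threshold of Scrublet (scanpy 1.11.5) marked at most 3 cells of a library, so the highest-scoring barcodes were removed instead, at a rate of 0.8% per 1000 (99 to 281 cells). Cells were clustered in Seurat 5.3.0 (R 4.3.3) on 2500 variable genes without members and pathway genes at resolution 0.6. Of 29 clusters, those with at least 2 markers of a list among their 10 leading genes and 3 detected took its name. Cell types rebuilt in this way may differ from the study's. Classes from single-cell marker scores, an alternative, had 4.1% of cells near a boundary. They gave the same name to 91.7% of mature granulocyte-like cells, 91.5% of microglia-like cells and 81.3% of Ly6C hi monocyte-like cells. For Lyve1-, Lyve1+ and infiltrating-like macrophages this share was 81.1%, 77.0% and 77.2%, and for cDC2-like cells 77.3%.

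Levels are summed UMIs per 1000000 (CPM) with exact Poisson 95% intervals, shares have exact binomial (Clopper-Pearson) intervals, and ratios have exact conditional binomial intervals. A group with 0 UMIs took a floor of 3. The ratio and its interval were run on Poisson counts simulated from class totals of mature granulocyte-like and microglia-like cells of brain. The interval assumes such counts. Filters, clustering, naming and the spread between cells or mice were not simulated. Members, marker, pathway and dissociation lists were chosen with earlier results of these data known. All members are named, the 5 genes most like each of 4 members (of genes with at least 100 UMIs), and at most 6 pathway genes per comparison with the largest ratio past the fold and at least 50 UMIs. Positions are from GENCODE vM21, and all 10 members matched a RefSeq promoter by symbol. Values were computed in Python 3.11.15 (numpy 2.4.6, scipy 1.17.1, pandas 2.3.3) and drawn with matplotlib 3.10.9. Alternatives changed the class rule, resolution, clustering genes, cell filter, doublets, number of cells, depth, weighting and background.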

Additional observations from a re-analysis of the deposited data

Results flagged for a closer look

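In 7 instances the injured and sham libraries of brain differed in one direction and those of dura mater in the other, with a counting interval off 0 in both tissues. The share of all genes that meet this rule is not given, so the count cannot be read as more or fewer than usual. No difference between the tissues was tested, since each rests on 1 library per group. Il1rn over all CD45+ cells had log2 ratios of 0.53 in brain and −0.46 in dura mater. Il1rn in Lyve1- macrophage-like cells had 1.49 in brain and −0.56 in dura mater. With the Lyve1+ and Lyve1- classes together it had −0.02 [−0.38 to 0.34] in brain and −0.41 in dura mater. Il1a in Ly6C low monocyte-like cells had 3.21 in brain, on 75 UMIs, and −2.99 in dura mater. All 25 UMIs of the sham dura mater library lay in 1 cell of 63. The injured dura mater library held none, which was set to the floor of 3. This class joined a pair of clusters. In brain the Il1a level was 6.42 and 9.38 CPM, sham and injured, in the cluster with less Il1r2. It was 0.931 and 41.2 in the other cluster. Il1f9 in Ly6C hi monocyte-like cells had −1.39 in brain and 2.71 in dura mater, on 23 and 27 UMIs. Il1f9 over all CD45+ cells had −1.32 in brain and 0.23 in dura mater, the latter −0.14 as a mean over cells and −0.35 with the T-like and B-like level subtracted, and in mature granulocyte-like cells it had −0.31 and 0.22, the first of which was 0.11 with cells thinned. Il1b in immature granulocyte-like cells had −0.26 in brain and 0.27 in dura mater.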

How the results depend on the processing

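No paired analysis was possible because each group has 1 library and the groups share no more than 1 replicate number. The analysis was repeated under 11 settings, of which 2 were chosen after the data were seen, namely adding the Siglecf cluster to the mature granulocyte-like cells and leaving out cells with a Retnlg or Cxcr2 UMI. They gave 1218 ratios for the members, of which 1057 kept their sign and 9 of those past the fold turned. Of 218 that were past the fold before the change of setting, 181 stayed past it. With cells thinned to 2000 UMIs, 100 of 133 kept their sign and 16 of 24 stayed past the fold. The causes were not tested.

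For Il1b in mature granulocyte-like cells the log2 ratio in brain was −0.35, and it was 0.38 with classes from each cell's own markers, −0.26 with all variable genes kept, −0.29 with doublets kept, −0.41 with 2500 cells per library, −0.26 with cells thinned, −0.26 as a mean over cells and 0.54 with the Siglecf cluster. In dura mater it was −0.08, and −0.14 at resolution 1.2, −0.35 with all variable genes, 0.0739 with the looser filter on cells, −0.13 with doublets kept, −0.15 with 2500 cells, 0.12 thinned and 0.12 as a mean over cells. Il1rn in mature granulocyte-like cells of brain (−0.96) was −0.13 with own-marker classes, −1.54 with 2500 cells and 0.12 with the Siglecf cluster, and Il1r2 there (−0.30) was −0.48 with 2500 cells and 0.0196 with that cluster. Il1b in microglia-like cells (0.85) was 1.02 with own-marker classes, 1.25 thinned, 1.14 as a mean over cells, 0.69 with the T-like and B-like level subtracted and 1.01 without cells with a Retnlg or Cxcr2 UMI. Il1rn in infiltrating-like over border macrophages (0.67) was 0.995 with own-marker classes, 0.20 at resolution 1.2, 1.55 thinned, 1.37 as a mean over cells and 2.93 without those cells.

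The ratios that turned were Il1f9 in microglia-like cells with the looser filter (−0.49), Il1a in Ly6C hi monocyte-like cells of brain with 2500 cells (−0.38) and thinned (−0.20), Il1f9 there thinned (0.12) and in those of dura mater thinned (−0.56), Il18bp in cDC2-like cells of brain with 2500 cells (−0.47) and thinned (−1.24), and, without cells with a Retnlg or Cxcr2 UMI, Il1r2 (1.36) and Il1rap (0.43) in infiltrating-like over border macrophages. Ratios on few UMIs, such as the 23 and 27 of Il1f9 in Ly6C hi monocyte-like cells, have wide counting intervals at this depth.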
